A study of Gallus gallus with 12 samples.

Results

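Muscle and actomyosin genes were followed across the dorsal mesentery, which hangs the early gut from the dorsal body wall, in white Leghorn chicken embryos at Hamburger-Hamilton stage 21. Every chicken probe set whose only gene symbol in the platform annotation was MYOCD, MEF2C, SMYD1, ACTA1, ACTA2, MYL4, TAGLN, CALD1 or ACTN1 was taken, which gave 18 of the 37693 chicken probe sets on the array. All 9 genes had at least 1 probe set. The 9 names were picked after results of these same 12 arrays were known, and which left-right or layer difference led to each name is not recorded. The values of these genes are therefore given as a description, with standard errors, the sign in each experiment and the overlap of the groups, and nothing is read from how many of them passed a threshold.

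Laser-cut sections of untreated embryos gave 4 compartments: left epithelium, right epithelium, left mesenchyme and right mesenchyme. Each compartment had 3 arrays, 1 from each of 3 biological experiments, and the material of an experiment was pooled for each compartment, with 1939 sections in all. How many embryos were pooled, and how the border between the covering coelomic epithelium and the mesenchymal core was recognised, was not stated in the labels. The left and right sides were compared in the study to find what differs between them at about the time the gut tube tilts.

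The genes cover successive steps of building a contractile cell. Myocardin (MYOCD) is a cofactor of serum response factor that drives smooth and heart muscle genes, MEF2C is a MADS-box transcription factor of muscle, endothelium and other lineages, and SMYD1 is a lysine methyltransferase of the SET and MYND domain family made mainly in heart and skeletal muscle. ACTA1 and ACTA2 encode the skeletal and smooth muscle alpha-actins, MYL4 encodes the essential light chain of myosin found in embryonic and atrial muscle, transgelin (TAGLN) and caldesmon (CALD1) bind actin filaments, and alpha-actinin 1 (ACTN1) cross-links them. The splanchnic mesoderm around the gut forms the smooth muscle of the gut wall later in development.

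Values are MAS5 signals, linear intensities scaled by the authors to a common trimmed mean on each array. The floor of an array was the 95th percentile of its 59 controls that match no chicken transcript, and it lay between 19.3 and 39.6. Pairwise correlations of the arrays lay between 0.926 and 0.966. Right epithelium 3 stood somewhat apart, with the largest residual SD (0.382 log2 against 0.297 to 0.360 on the other arrays) and the highest floor, and right mesenchyme 3 came next (0.360). The 3 prime minus 5 prime signal of the GAPDH controls, a gauge of RNA integrity, was 1.23 to 1.58 log2 on the 6 left arrays and 0.95 to 1.29 on the 6 right arrays, and that of the actin controls overlapped more, at 1.27 to 1.87 on the left and 1.05 to 1.74 on the right. The lowest value of each was that of right epithelium 3. The part of RNA integrity in the left-right differences below was not tested.

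The labelled layers were checked against markers. Of 13 tested markers of coelomic epithelium 7 were higher in the epithelium, among them the sialomucin gene PODXL (1.67 ± 0.08 log2, adjusted p = 2.1e-09) and the keratin gene KRT7 (0.79 ± 0.07, adjusted p = 2.2e-06), and 1, PTPRO, was lower (-0.64 ± 0.16, adjusted p = 0.022, chosen for mention after its value was seen). PTPRO lost that call without any 1 of left epithelium 2 and 3, left mesenchyme 1 and 2, right mesenchyme 3 and right epithelium 1 and 2 (adjusted p at most 0.084, without right mesenchyme 3). Of 20 tested markers of mesenchyme 7 were lower in the epithelium and 0 were higher. Endothelial markers were likewise lower in the epithelium, 13 of 19. Of these SOX17 (adjusted p = 0.048) had the same sign in 2 of 3 experiments and lost its call without any 1 of 9 arrays. The others kept theirs without any single array. Of all probe sets tested 2% were higher in the epithelium and 2.79% lower. The separation of the layers was one of degree.

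Genes of striated muscle were measured to unequal degrees, and the skeletal muscle factors and the heart factor NKX2-5 were dim. Other factors of heart ranged widely: TBX5 was above the floor on 1 array, TBX20 on 7, and GATA4, GATA5 and HAND2 on 12. MYOG, which encodes myogenin, was above the floor on 0 of the 12 arrays, the heart factor gene NKX2-5 on 1, and the skeletal muscle factor genes MYOD1 and MYF5 on 3 each, with the highest signals at 41.2 for MYOD1 and 45.3 for MYF5. MYF6 was above the floor on 4 arrays and PAX3 on 2, reaching 55.9 and 105. Of the 14 skeletal muscle markers 2 were above the floor on all 3 arrays of left epithelium, and 3 in each other compartment. CHRND was above the floor on 11 arrays. Of the 14 listed skeletal muscle markers with a probe set, 1 passed the intensity filter, the membrane junction gene JPH1, which was higher on the left in the epithelium (1.12 ± 0.28 log2, adjusted p = 0.046, up to 0.22 without left epithelium 1 and lost without every single array but left epithelium 2). Of 13 heart muscle markers 4 passed the filter, and POPDC3 was higher on the left in the mesenchyme (1.58 ± 0.32, adjusted p = 0.014, up to 0.094 without right mesenchyme 3, and lost without any 1 of that array and the 3 left mesenchymal ones). The heart troponin gene TNNT2 was above the floor on 9 arrays but reached no more than 45.7, and the natriuretic peptide gene NPPA was above it on 6, among them all 3 of right mesenchyme (42.6 to 80.4). Of the 13 heart markers 7 were above the floor on all 3 arrays of left epithelium, 4 in right epithelium, 4 in left mesenchyme and 5 in right mesenchyme. Several sarcomere genes were also above the floor on all 12 arrays, among them TNNC1, MYL2, TTN, NEB and ACTN2. The muscle intermediate filament gene DES had mean signals of 30.0 in left epithelium, 58.6 in right epithelium, 60.2 in left mesenchyme and 47.6 in right mesenchyme. It was above the floor on 10 of the 12 arrays and under the intensity filter. Smooth muscle myosin (MYH11) was above the floor on all 12 arrays, at 799 ± 174 in left and 858 ± 120 in right epithelium, and 655 ± 133 in left and 588 ± 106 in right mesenchyme (SD, n = 3 each), and its left-right difference passed in neither layer.

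**Figure D1:**
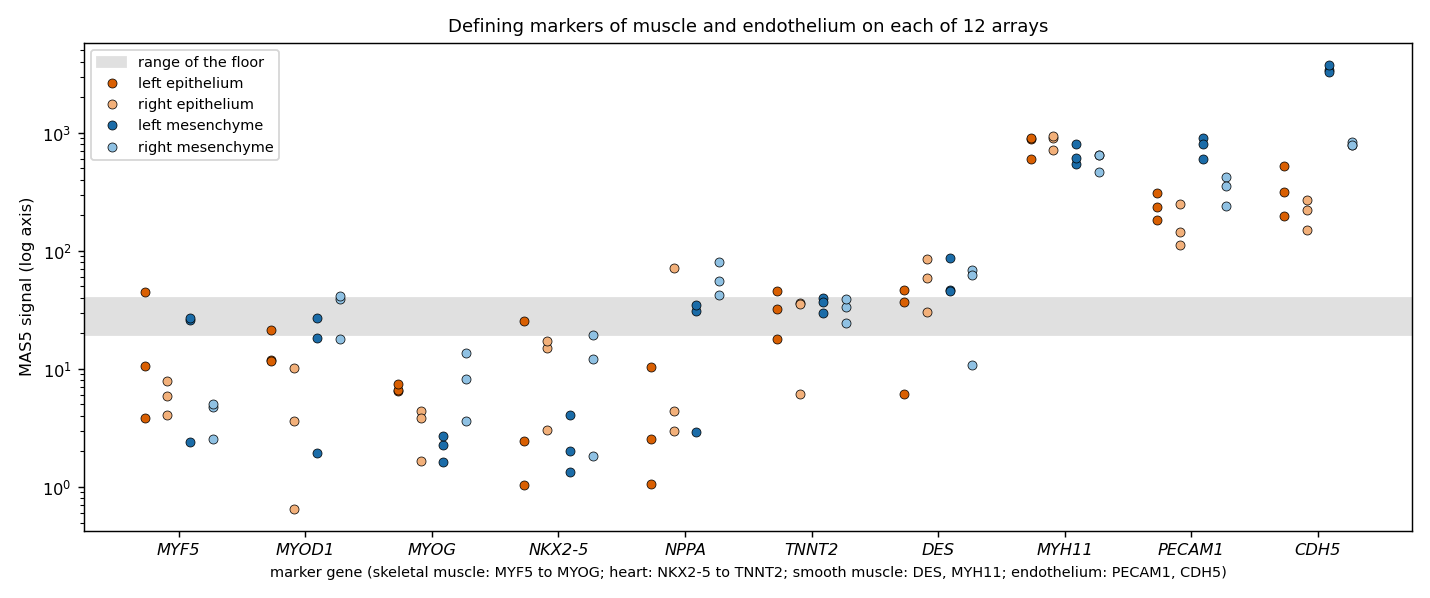
MAS5 signal (log axis) of marker genes of skeletal muscle, heart, smooth muscle and endothelium, with 1 point for each of the 12 arrays, coloured by compartment, and the range of the floor in grey. MYOG and NKX2-5 lie in or under the band, MYOD1 and MYF5 have 1 point each just above it, and MYH11 and the endothelial genes PECAM1 and CDH5 lie above it on all 12 arrays.

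MYL4 had large left-right steps in both layers. Its signal was 365, 308 and 211 in left epithelium against 1194, 1260 and 1256 in right epithelium. In the mesenchyme it was 1444, 1344 and 1220 on the left against 2949, 2903 and 2752 on the right. The left arrays lay below all right arrays of the same layer in both layers, without overlap, and left mesenchyme overlapped right epithelium. The left side was lower by 4.12-fold in the epithelium (-2.04 ± 0.17 log2) and by 2.14-fold in the mesenchyme (-1.10 ± 0.17 log2), with the same sign in 3 of 3 experiments in each. Here and below an experiment is the set of arrays with the same replicate number, a reading that the labels do not state directly. Over both sides the epithelium was lower than the mesenchyme by 1.68 ± 0.12 log2. Fewer cells that make a transcript and less transcript in each cell cannot be told apart in such pooled tissue.

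SMYD1 did not share that layer pattern. Its brightest probe set gave 116, 120 and 85.0 in left epithelium against 912, 901 and 676 in right epithelium. The mesenchymal values were 104, 117 and 194 on the left against 435, 295 and 470 on the right. The order was thus left epithelium and left mesenchyme, which overlapped, then right mesenchyme, then right epithelium, each of the last steps without overlap. The left was lower by 6.89-fold in the epithelium (-2.78 ± 0.30 log2) and by 2.73-fold in the mesenchyme (-1.45 ± 0.30 log2). The epithelium-mesenchyme difference over both sides was 0.37 ± 0.21 log2, with the groups overlapping. A second probe set of SMYD1 gave 38.3, 148 and 64.3 in left epithelium against 444, 368 and 372 in right epithelium, and 44.7, 83.3 and 68.1 in left mesenchyme against 173, 138 and 146 in right mesenchyme. Its left-right differences were -2.19 ± 0.37 and -1.07 ± 0.37 log2, again with the left arrays below all right ones in each layer. Unlike on the brightest probe set, right mesenchyme overlapped left epithelium. The layer difference of this second probe set was 0.73 ± 0.26 log2, higher in the epithelium in 3 of 3 experiments, with the groups overlapping.

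Markers of other cells moved with side as well. Of 8 blood markers 5, all globin genes, were lower on the left in the epithelium and 0 in the mesenchyme, and the summed signal of the 8, mostly globin, was 19579 to 63740 in left epithelium against 68365 to 72134 in right epithelium. Of 13 coelomic epithelial markers 4 were lower on the left in the epithelium and 5 in the mesenchyme, with 0 higher. The 4 were ALDH1A2, PTPRO, TCF21 and TBX18. The last 3 were lower in the epithelium than in the mesenchyme (-0.64 ± 0.16, -0.77 ± 0.23 and -0.44 ± 0.15 log2), where PTPRO alone passed. Among markers higher in the epithelium, KRT7, EPCAM, PODXL, LHX9, LRRN4 and CRB2 did not pass by side there. Their epithelial left-right differences were -0.05, 0.25, -0.27, -0.52, -0.36 and -0.61 log2. The 5 lower on the left in the mesenchyme were KRT7 (-0.59 ± 0.10), LHX9 (-0.94 ± 0.16), PTPRO, ALDH1A2 and TBX18. LRRN4 (-0.86), PODXL (0.13), EPCAM (0.31) and CRB2 (0.49) did not pass in that layer. The sum over 17 coelomic epithelial genes was 49205 to 53217 in left and 59582 to 63002 in right epithelium, and 34548 to 37535 in left and 44239 to 46399 in right mesenchyme. Within this sum ALDH1A2 had means of 8838 in left and 14271 in right epithelium, and 6193 in left and 10406 in right mesenchyme. Of 20 mesenchymal markers 2 were higher and 3 lower on the left in the epithelium, and 1 higher and 3 lower in the mesenchyme. Of all probe sets tested 1% were higher and 1.47% lower on the left in the epithelium, and 0.932% and 1.06% in the mesenchyme. DCN lost its epithelial call without any 1 of 10 arrays, LUM and POSTN their mesenchymal calls without any 1 of 5. VIM (mesenchyme), HBAD and HBBR lost theirs without any 1 of 4. PTPRO, TBX18 and ALDH1A2 kept theirs in both layers without any single array. The part of these cell types in the left-right differences of MYL4 and SMYD1 was not tested.

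The left-right difference of SMYD1 and of MYL4 was larger in the epithelium than in the mesenchyme by 1.33 ± 0.42 and 0.95 ± 0.24 log2, in 3 of 3 experiments for each. Neither interaction passed the adjusted threshold, and 6 of all 23063 probe sets tested did (0.026%, of which 0.00867% higher and 0.0173% lower). By limma 0 of the 14 tested probe sets of the 9 genes passed it, while 5 had an unadjusted p under 0.05.

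**Figure D2:**
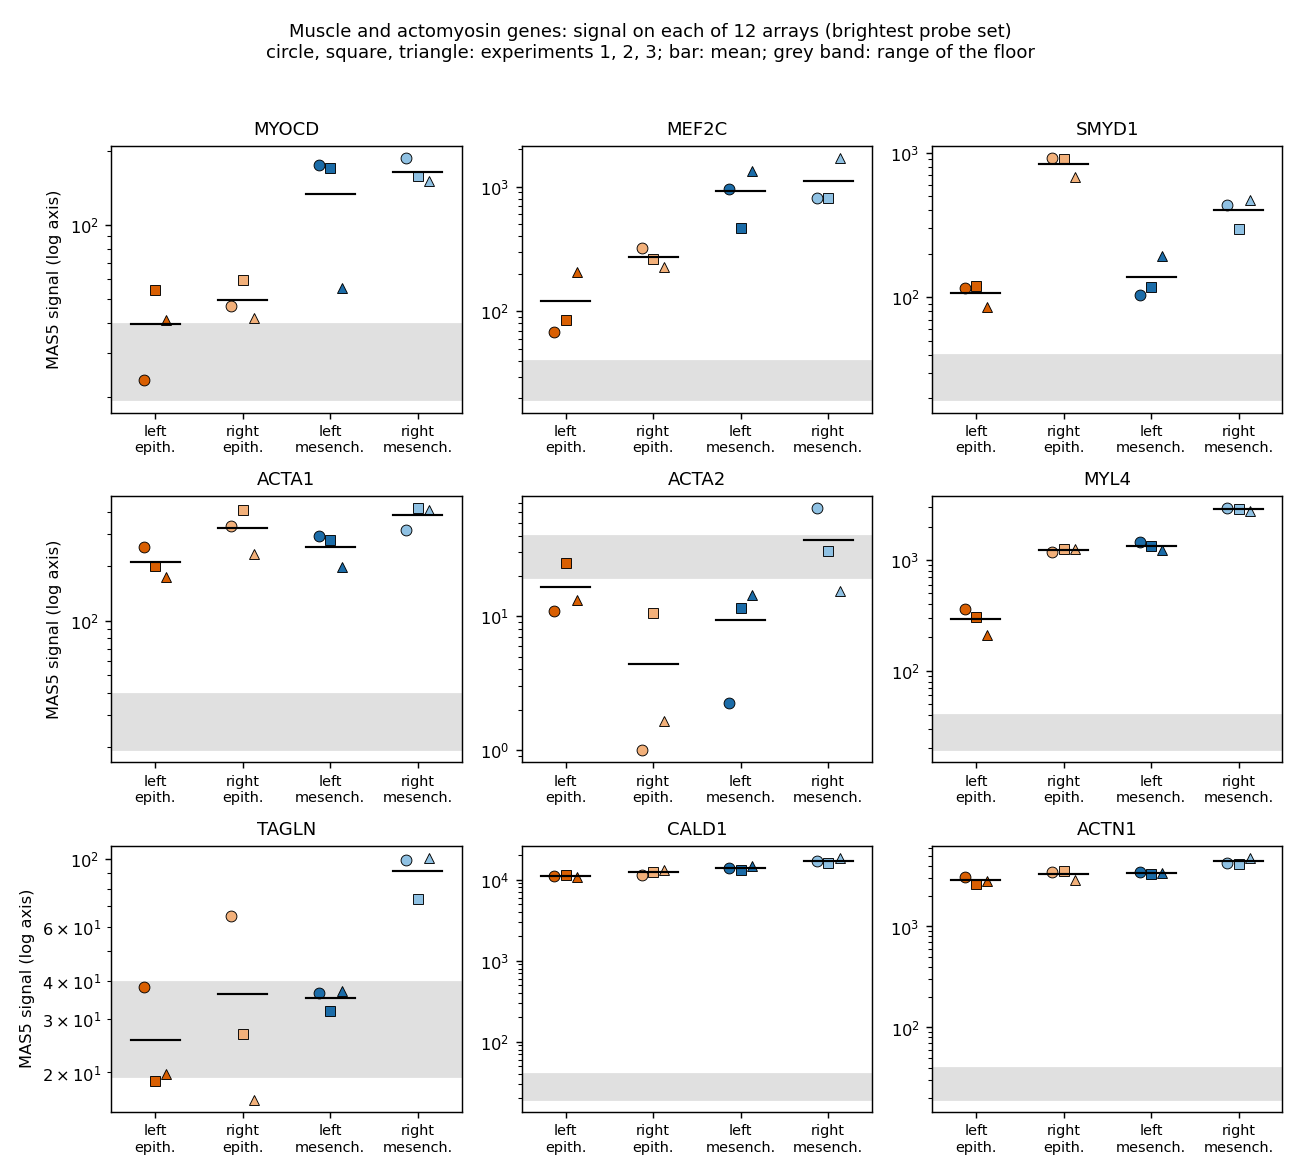
MAS5 signal (log axis) of the brightest probe set of each of the 9 genes on the 12 arrays, in the order left epithelium, right epithelium, left mesenchyme, right mesenchyme, with the experiments as circle, square and triangle, the mean as a bar and the range of the floor in grey. MYL4 is lowest in left epithelium, with a mean of 295, and highest in right mesenchyme, with a mean of 2868, SMYD1 peaks in right epithelium, and ACTA2 lies in or near the floor.

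MEF2C was higher in the mesenchyme than in the epithelium, and within the epithelium it was lower on the left. Its brightest probe set gave 68.7, 85.3 and 208 in left epithelium against 325, 262 and 226 in right epithelium. In the mesenchyme the values were 958, 465 and 1337 on the left against 815, 812 and 1687 on the right, and these overlapped. The epithelium was lower than the mesenchyme by 5.06-fold (-2.34 ± 0.23 log2), with no overlap of the 6 epithelial and 6 mesenchymal arrays. The left-right difference was -1.19 ± 0.32 log2 in the epithelium and -0.30 ± 0.32 in the mesenchyme, and the interaction of -0.90 ± 0.46 did not pass.

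The other probe sets of MEF2C had the same order. The second gave 56.9, 39.3 and 47.4 in left epithelium against 207, 198 and 243 in right epithelium, a difference of -1.87 ± 0.29 log2. Its mesenchymal values were 581, 570 and 356 on the left against 429, 605 and 668 on the right (-0.18 ± 0.29). The dimmest gave 40.7, 33.0 and 1.88 in left epithelium against 79.8, 61.0 and 70.2 in right epithelium, where 2 of 3 left arrays were above the floor. All 3 probe sets placed left epithelium below right epithelium, and right epithelium below both mesenchymal groups, without overlap.

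MEF2C is also made by endothelium and by some blood cells, and endothelial and leukocyte genes were lower in the epithelium as well. The summed signal of 21 endothelial markers was 3201 to 5018 in left epithelium, 3280 to 3935 in right epithelium, 13989 to 15322 in left mesenchyme and 6718 to 7573 in right mesenchyme. CDH5 and PECAM1, 2 of these endothelial markers, were above the floor on all 12 arrays. By test 5 of 19 endothelial markers were higher on the left in the mesenchyme, beside 0.932% of all probe sets. Among them LMO2 lost its call without any 1 of 5 arrays and VWF of 3, while CDH5, SOX7 and CLDN5 kept theirs. In the epithelium 1, FLT1, was lower on the left (adjusted p = 0.012, but up to 0.11 and lost without left epithelium 2 or right epithelium 2), beside 1.47%. Among the 8 blood cell markers the leukocyte genes SPI1 and CSF1R fell in the epithelium by 2.20 ± 0.23 and 1.81 ± 0.20 log2 (adjusted p = 1.3e-05 and 1.9e-05). The globin-rich sum of the 8 blood markers was 45650 to 59652 in left and 53430 to 61574 in right mesenchyme. The part of endothelial and blood cells in the MEF2C differences was not tested.

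MYOCD was dim in the epithelium and higher in the mesenchyme. Its brightest probe set gave 23.3, 54.1 and 41.0 in left epithelium against 46.5, 59.7 and 41.8 in right epithelium. In the mesenchyme it gave 175, 170 and 55.5 on the left against 186, 157 and 150 on the right. Left mesenchyme 3 was as low as the epithelial arrays, so the layers overlapped, and every other mesenchymal array lay above all epithelial ones. The epithelium-mesenchyme difference was -1.40 ± 0.28 log2, and the left-right differences were -0.27 ± 0.39 in the epithelium and -0.40 ± 0.39 in the mesenchyme, with the sides overlapping in both layers. The other probe set of MYOCD was above the floor on 5 of 12 arrays and did not reach the intensity filter.

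The muscle actins differed little or lay at the floor. ACTA1 gave 254, 201 and 174 in left epithelium against 333, 408 and 234 in right epithelium, which overlapped, and 292, 280 and 197 in left mesenchyme against 316, 419 and 410 in right mesenchyme, which did not. The left was lower by 0.58 ± 0.27 log2 in the epithelium and 0.55 ± 0.27 in the mesenchyme, in 3 of 3 experiments each. Vertebrate actin genes are nearly identical in their coding parts, and the probe sequences were not used here, so how far the abundant cytoplasmic actins add to this signal was not tested. The cytoplasmic beta-actin gene ACTB had signals of 18238 ± 1760 in left and 20665 ± 647 in right epithelium, and 19702 ± 1130 in left and 20921 ± 97.0 in right mesenchyme. ACTA2, the usual marker of smooth muscle and myofibroblasts, was above the floor on 3 of 12 arrays: 10.9, 25 and 13.3 in left epithelium against 1.00, 10.6 and 1.66 in right epithelium, and 2.25, 11.6 and 14.3 in left mesenchyme against 64.4, 30.7 and 15.5 in right mesenchyme. No fold is read from it, since right epithelium and left mesenchyme had 0 arrays above the floor.

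Of the actin-binding genes, TAGLN was dim and highest in right mesenchyme. It gave 38.1, 18.7 and 19.7 in left epithelium against 65.0, 26.8 and 16.3 in right epithelium, where the groups overlapped and 1 and 2 arrays were above the floor. In the mesenchyme it gave 36.3, 31.7 and 36.9 on the left against 99.5, 73.7 and 101 on the right, with no overlap and all 6 arrays above the floor. The difference in the mesenchyme was -1.07 ± 0.40 log2. TAGLN and ACTA2 lay under the intensity filter and were not in the test.

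CALD1 was bright on all arrays and changed by small steps in one order. Its brightest probe set gave 11227, 11380 and 10828 in left epithelium against 11549, 12371 and 12972 in right epithelium, and 13920, 13026 and 14907 in left mesenchyme against 16903, 15838 and 18662 in right mesenchyme. None of the 4 compartments overlapped its neighbour in this order. The steps were small: -0.14 ± 0.08 log2 for left against right in the epithelium, -0.30 ± 0.08 in the mesenchyme and -0.40 ± 0.06 for epithelium against mesenchyme. The other 3 probe sets of CALD1 gave layer differences of -0.42 ± 0.06, -0.67 ± 0.08 and -0.56 ± 0.07, each with all epithelial arrays below all mesenchymal ones. Their left-right differences in the epithelium were -0.35 ± 0.09, 0.04 ± 0.11 and -0.10 ± 0.10, so the epithelial step was not shared by all probe sets. In the mesenchyme they were -0.14 ± 0.09, -0.27 ± 0.11 and -0.46 ± 0.10.

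ACTN1 gave 3103, 2663 and 2847 in left epithelium against 3425, 3544 and 2913 in right epithelium, and 3428, 3301 and 3347 in left mesenchyme against 4248, 4172 and 4805 in right mesenchyme. The mesenchymal sides did not overlap, with a difference of -0.39 ± 0.12 log2, and the epithelial ones did (-0.19 ± 0.12). A second probe set of ACTN1 did not show this: its means were 553 ± 140 and 564 ± 152 in left and right epithelium and 538 ± 49.4 and 595 ± 21.2 in left and right mesenchyme (SD, n = 3 each), and its left-right difference in the mesenchyme was -0.14 ± 0.24. A further probe set of ACTN1 was under the floor on all 12 arrays.

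**Figure D3:**
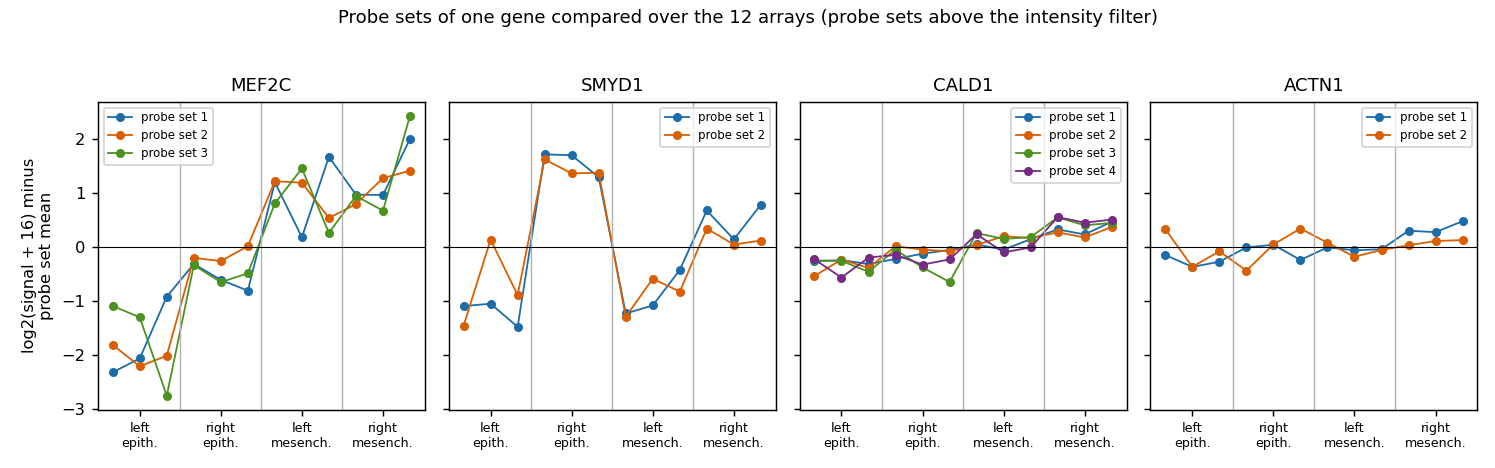
Log2(signal + 16) minus the mean of each probe set on the 12 arrays, in the order left and right epithelium, left and right mesenchyme, for the genes with more than 1 probe set above the intensity filter. The probe sets of MEF2C, SMYD1 and CALD1 broadly follow each other between compartments, and those of ACTN1 do not. Within a compartment those of MEF2C can differ: left mesenchyme 3 was the highest of its group on the brightest (1337) and the lowest on the others (356 and 129).

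Set side by side, the brightest probe sets that entered the test leaned one way on each contrast. ACTA2 and TAGLN, under the intensity filter, are left out of these counts. With them, 8 of 9 were lower on the left in the epithelium (median -0.27 log2), and ACTA2, mostly under the floor, was higher. In the mesenchyme 9 of 9 were lower on the left (median -0.55), and 8 of 9 were lower in the epithelium than in the mesenchyme (median -0.47). In the epithelium all 7 were lower on the left, with a median of -0.58 log2. All left arrays lay below all right ones in 4 of 7, as in 7.91% of the probe sets tested. The opposite order was seen in 0 of 7 and in 7.77% of the probe sets tested. In the mesenchyme all 7 were lower on the left, with a median of -0.40. No overlap in that direction was seen in 5 of 7, against 8.78% of the probe sets tested (8.93% the other way). Over the layers 6 of 7 were lower in the epithelium, with a median of -0.40, and 2 of 7 did not overlap, against 1.19% (1.98% in either direction). The medians of all probe sets tested were 0.01, 0.00 and -0.01. Of the 9 brightest probe sets 7 entered the test. In the left-right comparison of the epithelium 2 of them passed (SMYD1 and MYL4), where 1.47% of all probe sets passed in that direction. In the mesenchyme the same pair passed, with a background of 1.06%. MYOCD, MEF2C, MYL4, CALD1 and ACTN1 passed as lower in the epithelium than in the mesenchyme, with a background of 2.79%. The MYOCD means in left and right epithelium, 39.5 and 49.4, lay around the filter signal of 47.4. Its mesenchymal values thus helped it over the filter, and its call between the layers is no support. Recomputed under other settings, ACTN1 did not pass in 15 of 24, MYOCD in 2 and CALD1 in 1, and in the mesenchymal comparison of sides SMYD1 did not pass in 8 of 25 (among them without left mesenchyme 1 or 2 or right mesenchyme 1 or 3) and MYL4 in 1. These genes were chosen on these arrays, so the counts are a record of the choice and are read no further.

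**Figure D4:**
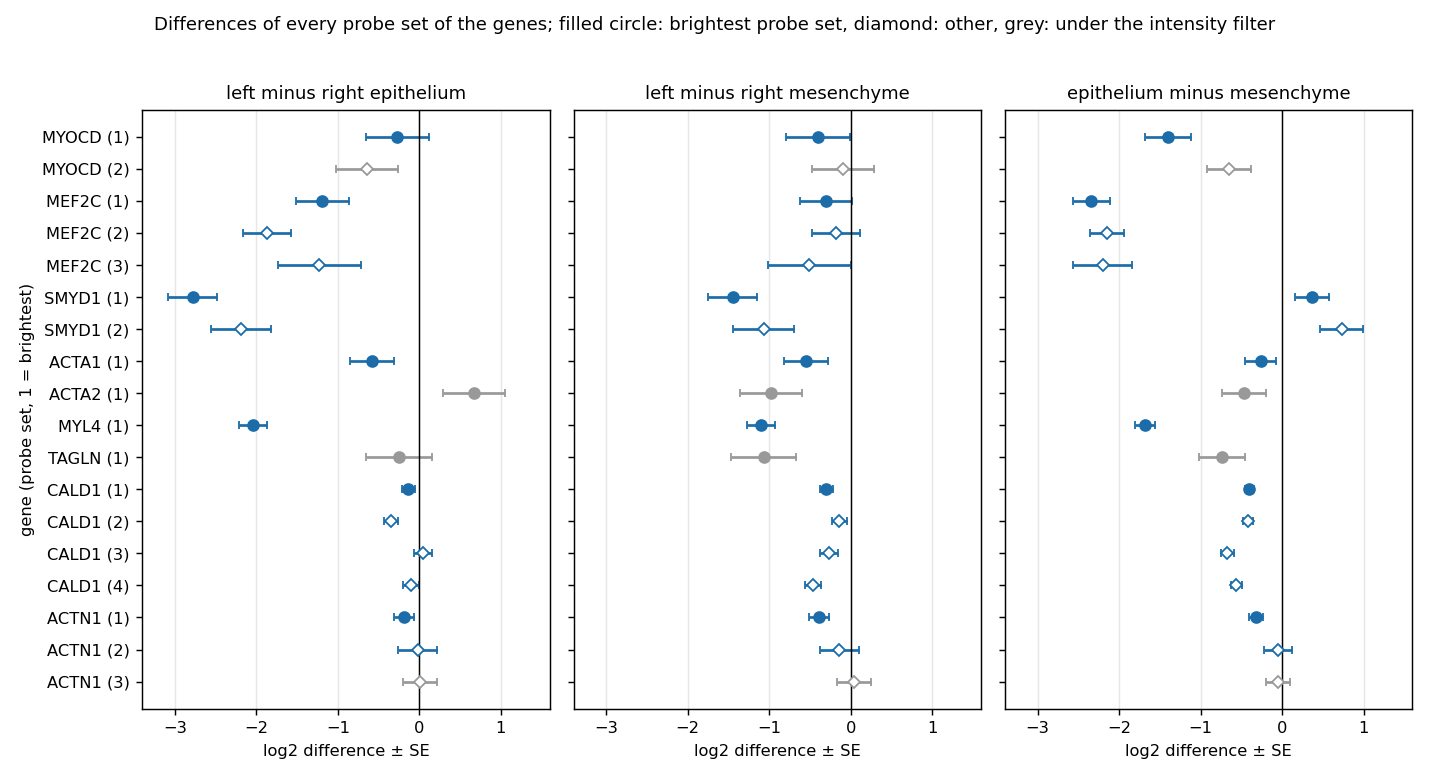
Log2 difference ± SE (x axis) of all 18 probe sets of the 9 genes for left minus right epithelium, left minus right mesenchyme, and epithelium minus mesenchyme, with the brightest probe set of a gene as a circle, others as open diamonds and those under the intensity filter in grey. Most points lie left of 0, the largest being SMYD1 at -2.78 in the epithelium. The grey points, among them ACTA2 and TAGLN, rest mostly on signals at or near the floor, although TAGLN gave 73.7 to 101 in right mesenchyme.

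Among the 7 genes with a tested brightest probe set, SMYD1 went least with the rest over the 12 arrays. The Pearson r of log2 values, which share libraries and compartments and are given as a description, was 0.87 for CALD1 and ACTN1, 0.85 for MYL4 and CALD1, and 0.86 for MEF2C and CALD1. The pairs without SMYD1 lay between 0.42 (MEF2C and ACTA1) and 0.87. SMYD1 stood at -0.02 with MYOCD, 0.18 with MEF2C and 0.27 with CALD1, and at 0.42 with ACTN1, 0.55 with MYL4 and 0.60 with ACTA1. Over all 9734 other genes, each by its brightest probe set, the profiles most like MYL4 were those of FGFR2 (r = 0.965), CORO1C (0.962) and NES (0.955). Those most like SMYD1 were PTN (0.957), PDE5A (0.953) and SCGN (0.952). For MEF2C they were ADSS1 (0.958), CTSS (0.940) and KLC1 (0.927), and for MYOCD RGS18 (0.913), NLGN4Y (0.895) and POT1 (0.892). CALD1 was most like C9ORF58 (0.953), KCNIP4 (0.945) and CD38 (0.931), ACTN1 most like CORO1C (0.928), PSMD1 (0.925) and HTR2B (0.924), and ACTA1 most like NR1H3 (0.912), S100A10 (0.887) and ACOT9 (0.883). The values for ACTN1 hold for its brightest probe set only, which had an r of 0.22 with its other tested probe set.

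Other muscle and actomyosin genes were taken from 4 lists, of sarcomere, smooth muscle, cytoplasmic actomyosin and muscle regulator genes, with 107 genes tested. In the left-right comparison of the epithelium 4 rose and 4 fell, in that of the mesenchyme 4 rose and 6 fell, and for epithelium against mesenchyme 2 rose and 13 fell. These were 7.48%, 9.35% and 14.0% of the 107, against 2.47%, 1.99% and 4.79% of all probe sets tested. The lists were written with earlier results of these data known. Each listed gene is counted by its brightest tested probe set, unlike the background, so the shares are a description and are read no further. The median differences were -0.14, -0.11 and -0.05 log2. In the interaction 0 of 107 passed in limma, with 8 at an unadjusted p under 0.05.

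Sarcomere genes were represented by 18 tested genes, since most of the 39 with a probe set were dim. Cardiac and slow skeletal troponin C (TNNC1) was lower on the left in both layers, by 0.41 ± 0.09 log2 in the epithelium (adjusted p = 0.020) and 0.51 ± 0.09 in the mesenchyme (adjusted p = 0.0045), and 0.35 ± 0.06 higher in the epithelium than in the mesenchyme (adjusted p = 0.0031). Its means were 8534 ± 1020 in left and 11304 ± 994 in right epithelium, and 6452 ± 593 in left and 9172 ± 472 in right mesenchyme. Tropomodulin 1 (TMOD1), which caps actin filaments, fell on the left in the mesenchyme by 0.65 ± 0.16 (adjusted p = 0.039). The myosin light chain gene MYL2 fell in the epithelium by 1.46 ± 0.22 (adjusted p = 0.00064), as did MYH15 (-1.15 ± 0.29, with 1 of the 3 left epithelial arrays above the floor) and TMOD1 (-0.48 ± 0.11), while titin (TTN) rose (0.93 ± 0.24, adjusted p = 0.034). The list medians were -0.10 and -0.25 log2 for left against right in epithelium and mesenchyme and 0.01 for the layers. Several of these calls hung on single arrays. TNNC1 lost its epithelial call without any 1 of left epithelium 1 and 2 and right epithelium 1 and 2 (adjusted p at most 0.11, without right epithelium 2), and its mesenchymal call without right mesenchyme 1 (0.053). TMOD1 kept its call by side only without left epithelium 1 or 3 or right epithelium 1 or 3 (at most 0.22, without left mesenchyme 1), and lost that by layer without left mesenchyme 2 or 3 or right mesenchyme 1 (0.063 without the last). MYH15 kept its call only without left epithelium 1, left mesenchyme 1, right mesenchyme 1 or right epithelium 2 (at most 0.094, without left epithelium 2), and TTN only without left epithelium 1, left mesenchyme 3, right mesenchyme 1 or right epithelium 3 (at most 0.11, without left mesenchyme 2).

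Among 15 tested smooth muscle genes, FHL1, which encodes a LIM domain protein of muscle, rose on the left in the epithelium by 1.74 ± 0.25 log2 (3.33-fold, adjusted p = 0.00054), with means of 398 ± 94.3 against 107 ± 17.4. It ran against the lower left values of most of the 9 genes. The integrin gene ITGA8 fell there by 1.62 ± 0.26 (adjusted p = 0.0018). In the mesenchyme SYNPO2, the gene of an actin-bundling protein of muscle, fell on the left by 1.68 ± 0.36 (adjusted p = 0.018), at 43.4 ± 15.4 against 171 ± 18.4. Between the layers KCNMB1, a potassium channel subunit of smooth muscle, fell in the epithelium by 2.39 ± 0.24 (5.24-fold, adjusted p = 8.3e-06), FHL2 by 0.88 ± 0.11 and FHL1 by 0.87 ± 0.17. KCNMB1 means were 33.6 ± 15.8 in left and 76.3 ± 35.1 in right epithelium, and 203 ± 37.5 in left and 526 ± 134 in right mesenchyme. In the epithelium 2 of 3 arrays on each side were above the floor, so the size of its fall is not well measured. The list medians were -0.41, -0.40 and -0.18 log2 for the 3 contrasts. SYNPO2 lost its call without any 1 of left mesenchyme 2 and 3 and the 3 right mesenchymal arrays (at most 0.13, without left mesenchyme 2).

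Of 43 tested cytoplasmic actomyosin genes, 0 passed for left against right epithelium by limma (11 had an unadjusted p under 0.05, median -0.18 log2), and 1 for the mesenchyme (where 1.99% of all probe sets passed), the focal adhesion gene vinculin (VCL), which fell on the left by 0.50 ± 0.11 log2 (adjusted p = 0.028, but 0.19 without left mesenchyme 1, and lost without any 1 of left mesenchyme 1 and 2 and the 3 right mesenchymal arrays). In the epithelium against the mesenchyme 4 of the 43 fell, beside 2.79% of all probe sets: the small GTPase gene RHOB (-0.52 ± 0.09), zyxin (ZYX, -0.59 ± 0.11), LIMA1 (-0.38 ± 0.08) and palladin (PALLD, -0.33 ± 0.09), of actin-bundling and adhesion proteins. PALLD kept its call only without left epithelium 2 or 3 or right epithelium 1 (at most 0.12, without right mesenchyme 1).

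Of 31 tested muscle regulators, ISL1, a LIM homeodomain factor of heart progenitors among others, rose on the left by 2.13 ± 0.26 log2 in the epithelium and 2.30 ± 0.26 in the mesenchyme. FOXC2 (0.98 ± 0.18 in each layer) and the Notch target HEY1 (1.13 ± 0.20 and 0.96 ± 0.20) rose there too, as did the gut mesoderm factor NKX3-2 in the mesenchyme (1.6 ± 0.38, adjusted p = 0.037), although 1 of the 3 right mesenchymal arrays was above the floor for it (6.44 to 30.5), so the size of that difference is not well measured. GATA4, a zinc finger factor of heart and gut mesoderm, fell on the left by 0.87 ± 0.17 in the epithelium and 1.27 ± 0.17 in the mesenchyme. TCF21 fell in the epithelium (-1.47 ± 0.33, adjusted p = 0.021), and SMYD2, a methyltransferase of the family of SMYD1, in the mesenchyme (-0.63 ± 0.15, adjusted p = 0.036). Serum response factor (SRF), the partner of myocardin, had mean signals of 98.9 ± 21.5 on the left and 86.7 ± 16.1 on the right in the epithelium, and 112 ± 19.2 in left and 122 ± 26.5 in right mesenchyme, and did not pass in any contrast. In the epithelium against the mesenchyme ELK3 (-0.82 ± 0.14), FOXC2 (-0.58 ± 0.12) and HEY1 (-0.54 ± 0.14) fell. NKX3-2 lost its call without any 1 of left epithelium 1, the 3 left mesenchymal arrays and right mesenchyme 2 and 3 (adjusted p at most 0.24, without right mesenchyme 2). SMYD2 lost it without left mesenchyme 1 or 2 or any right mesenchymal array (0.22 without left mesenchyme 2), and TCF21 without left epithelium 2 or 3 or right epithelium 3 (0.15 without the last). HEY1 lost its mesenchymal call without left mesenchyme 1 or 3 or any right mesenchymal array (0.14 without left mesenchyme 3), and kept that between layers only without left epithelium 3, left mesenchyme 2 or right epithelium 1 (at most 0.12, without left mesenchyme 3). GATA4 lost its epithelial call without left epithelium 3 (0.056).

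**Figure D5:**
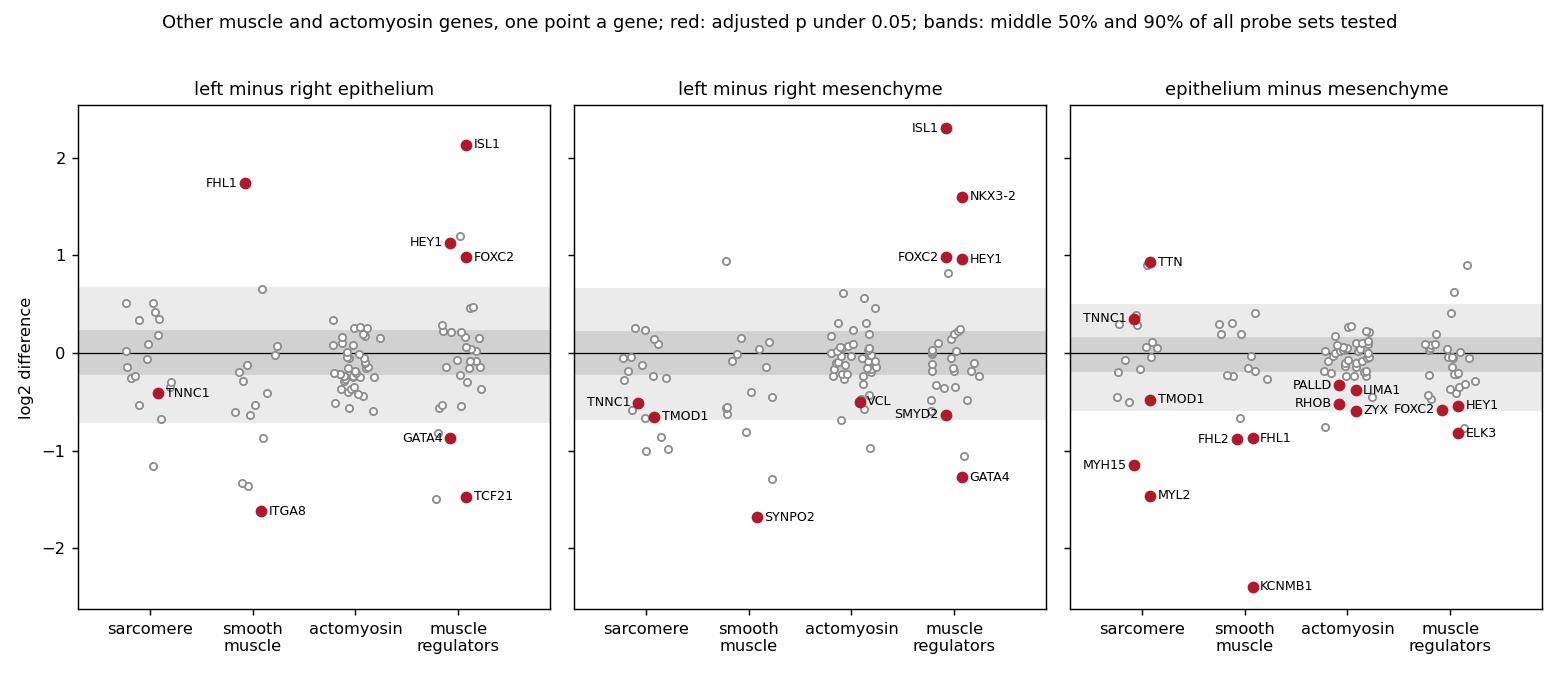
Log2 differences (y axis) of the 107 other tested genes by list, for left minus right epithelium, left minus right mesenchyme, and epithelium minus mesenchyme, with 1 point for each gene, those with an adjusted p under 0.05 in red and named, and the middle 50% and 90% of all probe sets tested as grey bands. ISL1 lies highest in both left-right panels at 2.13 and 2.30, KCNMB1 lowest between the layers at -2.39, and the called actomyosin genes lie between -0.59 and -0.33.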

How the data were processed

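The authors deposited 1 table of Affymetrix intensity values for 12 arrays, made with MAS5 in GCOS per the submitters' processing notes, with no versions given. The values are linear, and the mean of each array after trimming 2% at each end was 500.107 to 500.116. Of 38535 probe sets, 96 controls were left out. After adding 16 and taking log2, the 23063 probe sets above the 40th percentile of the mean (a signal of 47.4) were fitted in limma 3.58.1 (R 4.3.3) with compartment and, as a fixed block, experiment, with an intensity trend. Tests were two-sided, adjusted by Benjamini-Hochberg over all 23063, with a threshold of 0.05. Probe sets under the filter got differences from a fit without it. Errors after ± are SE for log2 differences and SD for signals. The number of arrays limits the precision, and a plain exact test of 3 against 3 cannot go below 0.1.

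The 3 experiments each supplied every compartment, per the labels' series text, and samples with the same replicate number were taken as 1 experiment, which the labels do not state. Over 18 same-numbered pairs, deviations from compartment means correlated by -0.063 to 0.105. Gene names came from the platform annotation of probe sets with 1 symbol. The brightest tested probe set stood for a gene. The 9 genes, the pathway and marker lists (written from general knowledge) and the rule for named genes were chosen with earlier results of these data known. The rule took all probe sets of the 9 genes, up to 6 called genes by p from each list and contrast, the 3 most similar profiles of each gene, and defining markers. SRF, ACTB and PTPRO between the layers were added after their values were seen. The fit was tested on simulated data. The genome build and probe sequences are not given in the sources used here.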

Additional observations from a re-analysis of the deposited data

Results flagged for a closer look

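ACTA2 had fitted left-right differences of opposite sign in the layers in every experiment, and this was not tested. The epithelial minus the mesenchymal difference came to 1.66 on the log2 scale (0.67 in the epithelium and -0.98 in the mesenchyme). These are not measured sizes, since 3 of the 12 values were above the floor (1 in left epithelium and 2 in right mesenchyme) and values at the floor have no order.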

How the results depend on the processing

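Across 686 recomputed values of the 7 genes with a tested brightest probe set, 673 had the same sign, 12 moved by over 1 SD, and 0 of those called reversed. ACTA2 and TAGLN were not among them. MYL4 stayed called in the epithelium, at -2.23 to -1.82 log2 without single arrays or experiments. ACTN1 did not pass between the layers in 15 of 24 settings, nor SMYD1 in the mesenchyme in 8 of 25, and MYOCD, CALD1 and MYL4 each lost a call in 1 or 2. Counts of probe sets moved more. Without the intensity trend they were 268 for left against right epithelium (5 listed genes), 205 for the mesenchyme (6), 672 for epithelium against mesenchyme (9) and 0 for the interaction. Array weights gave 763 (17 listed) in the mesenchyme and 14 for the interaction. The interaction had 10 with a pseudocount of 64, 10 with quantile normalization and 3 with no filter. The 6 epithelial arrays alone, with fewer samples, gave 272 (4 listed). Without right epithelium 3 and right mesenchyme 3, a choice made after seeing the data, the mesenchyme had 288. Without the replicate block the counts were 529, 447 and 1073, and 10 for the interaction, and listed genes 9, 10 and 14. In that limma fit TTN (adjusted p = 0.064) and MYH15 (0.054) lost their calls between layers. JPH1 (0.051) and DCN (0.13) lost theirs by side in the epithelium, and LMO2 (0.051), POSTN (0.055) and LUM (0.059) in the mesenchyme. Leaving out single arrays or experiments gave 200 to 562 probe sets and 2 to 9 listed genes in the epithelium, 149 to 541 and 2 to 13 in the mesenchyme, 419 to 1151 and 5 to 16 between layers, and 0 to 15 probe sets for the interaction, whose median over the 7 brightest tested probe sets of the genes ran between -0.40 and 0.15. Where no value shows the cause, the cause was not tested. The floor limits ACTA2 and TAGLN.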
